A study of Mus musculus with 18 samples.

Results

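Stimulation through CD3 and CD28 was examined in splenic CD4 T cells of Gli2R Tg mice, by array title: 6 of the study's 18 arrays, 3 from cells stimulated for 6 h and 3 from resting cells. The whole study ran the same pair of conditions in wild type (WT), Gli2A Tg and Gli2R Tg mice, with 3 Affymetrix arrays for each of the 6 groups. Stimulated Gli2R Tg cells carried a Gli2R transgene on the C57BL/6 background and were held with antibodies against CD3 and CD28 for 6 h. Resting Gli2R Tg cells carried the same transgene and were taken fresh. For both groups the spleens came from mice of 9 to 15 weeks and the CD4 cells were purified with magnetic beads. The labels give neither the promoter of the transgene nor the origin of the 3 replicates. The p-values reflect only the spread among replicates, estimated jointly over all 6 groups. Some replicates may be technical. The 3 of a group were not all repeats of 1 sample, since Y-linked signal differed among stimulated arrays and pancreatic signal among resting arrays. No group was cultured for 6 h without antibodies, so antibody and culture cannot be told apart.

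Gli2 is a DNA-binding protein through which Hedgehog signals reach their target genes, and Gli2R is named as its repressor form. Engagement of the T cell receptor with CD28 starts calcium, MAP kinase and NF-kB signalling, which switch on early transcription factors and then cytokine and receptor genes. In the first hours a T cell also leaves the resting state, enlarges, and raises nutrient uptake, ribosome production and glycolysis before it enters its first division. Levels below are log2(intensity + 16) after quantile normalization, and a difference is the stimulated mean minus the resting mean of these levels, which understates the change of dim genes. Calls rest on limma, fitted to all 18 arrays, at a Benjamini-Hochberg adjusted p below 0.05 over 18193 genes. A gene whose 3 stimulated values all lay above or all below the 3 resting values is said not to overlap.

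The arrays fell into 2 sets by condition, but each set held arrays that stood apart. Across genes, the stimulated arrays correlated with each other at 0.975 to 0.978, the resting arrays at 0.973 to 0.980, and stimulated with resting arrays at 0.893 to 0.904. The mean level of pancreatic acinar markers, enzymes of the exocrine pancreas, was 5.42, 5.82 and 5.57 on stimulated replicates 1, 2 and 3, against 10.95, 5.84 and 11.93 on resting replicates 1, 2 and 3. Resting replicates 1 and 3 therefore carried a pancreatic signal that resting replicate 2 lacked. Y-linked genes averaged 9.09, 5.36 and 8.91 on stimulated replicates 1, 2 and 3 and between 4.80 and 5.24 on the resting arrays, so Y-linked signal was present on stimulated replicates 1 and 3 and at the level of the dimmest genes on the other 4 arrays. Macrophage and monocyte markers averaged 6.11, 6.13 and 6.56 on the stimulated arrays, against 11.05, 10.86 and 10.69 on the resting ones. T cell identity markers averaged 12.25, 12.18 and 12.25 on stimulated arrays, against 13.39, 13.42 and 13.35 on resting arrays, so the labelled cell type was present in both groups. In bulk RNA, fewer cells of a type and less RNA per cell cannot be told apart. Gli2 itself lay at 4.60 on stimulated and 4.99 on resting arrays, below the 25th percentile of all genes (5.37), so its probe sets check nothing about the transgene.

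**Figure D1:**
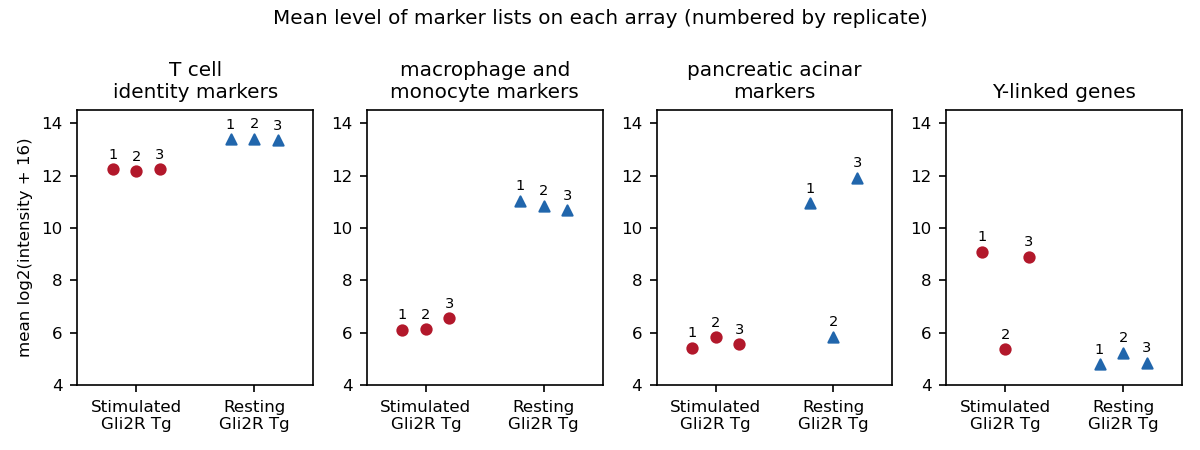
Mean log2(intensity + 16) of 4 marker lists on each of the 3 stimulated (circles) and 3 resting (triangles) Gli2R Tg arrays, numbered by replicate. Macrophage markers were 6.11 to 6.56 on stimulated and 10.69 to 11.05 on resting arrays, resting replicates 1 and 3 alone had pancreatic signal (10.95 and 11.93), and stimulated replicates 1 and 3 alone had Y-linked signal (9.09 and 8.91).

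Stimulation changed 7703 of 18193 genes in Gli2R Tg cells (42.3%). Of these, 3604 rose (19.8%) and 4099 fell (22.5%), and 7510 of the called genes did not overlap, against 9471 of all genes tested (52.1%). The shares of 19.8% and 22.5% are the background for the counts of each list below. Changes over 2-fold numbered 2022 upward (11.1%) and 2712 downward (14.9%), and changes over 16-fold numbered 18 upward and 96 downward. The median difference of all genes was 0.01. The share of called genes that rose was 46.8%, 44.2% with median centring and 41.9% on the deposited scaling. With the macrophage marker mean as a covariate, which separates stimulated from resting arrays almost as the groups do, 15 genes were called, so that list's part in the response cannot be told apart from stimulation.

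The gene that rose most was Il2, which encodes the T cell growth factor interleukin 2. Its level was 12.48, 12.70 and 12.41 on stimulated arrays and 6.24, 6.82 and 6.30 on resting arrays. All stimulated values lay far above the resting ones, a difference of 6.08 (SE 0.22, 67.5-fold, adjusted p = 1.45e-10). The window from 250 bases before to 50 after its start, from RefSeq on GRCm38.p6 (chr3:37125905-37126204, minus strand), is shown because Il2 is the textbook target of NFAT, a calcium-driven transcription factor. Capitals mark the NFAT core GGAAA on either strand, which occurs in 61.3% of all 32851 RefSeq windows of this kind in 90.5% of 21 windows of the cytokine genes listed below, and in all 13 windows of the macrophage markers, which were lower after stimulation. A gene with several annotated starts has several windows. The windows and motifs printed here were chosen after the values were seen, and a match describes letters only.
Il2: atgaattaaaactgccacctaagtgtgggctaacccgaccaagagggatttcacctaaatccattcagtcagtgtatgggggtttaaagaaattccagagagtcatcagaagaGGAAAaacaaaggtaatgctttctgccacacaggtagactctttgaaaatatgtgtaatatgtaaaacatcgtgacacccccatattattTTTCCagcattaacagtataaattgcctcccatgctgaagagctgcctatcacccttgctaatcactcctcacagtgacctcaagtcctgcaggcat

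The other large increases joined transcription factors with metabolic enzymes. Irf4, a transcription factor that rises with the strength of T cell receptor signalling, was at 13.85, 13.78 and 13.61 on stimulated arrays and 9.40, 9.25 and 8.15 on resting arrays, a difference of 4.81 (adjusted p = 3.17e-09). Nr4a3, an orphan nuclear receptor induced by antigen receptor signals, rose by 4.85, and Fosl2, an AP-1 subunit, by 4.56. Lif, a cytokine of the interleukin 6 family, was at 11.06, 11.24 and 10.45 on stimulated arrays, against 6.61, 6.19 and 6.22 on resting ones, a difference of 4.58. Metabolic genes in this group were Ak4, a mitochondrial adenylate kinase (5.30), Bcat1, the cytosolic branched-chain aminotransferase (5.27), Shmt1, a serine hydroxymethyltransferase (4.69), and Hk2, a hexokinase (4.26). Mfsd2a, a transporter of lysophospholipids, rose by 5.18, and Sult2b1, a sterol sulfotransferase, by 4.83. Nrip2 (5.38), Lad1 (4.96), Spin4 (4.57) and the histone deacetylase Hdac11 (4.27) complete the 15 largest increases.

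The 15 largest decreases held T cell genes and genes of other cells. Jun, the central AP-1 subunit, was at 7.98, 8.20 and 7.27 on stimulated arrays and 13.64, 13.97 and 12.70 on resting arrays, a difference of -5.62 (SE 0.71, adjusted p = 1.02e-05). C1qa, C1qb and C1qc, the chains of complement C1q made by macrophages, fell by 7.30, 6.11 and 6.90. Slc40a1, the iron exporter ferroportin, fell by 6.47, Cfp, which encodes properdin, by 6.30, and Hpgd, a prostaglandin-degrading enzyme, by 5.95. Immunoglobulin kappa probe sets Igk and Igk-V21 fell by 5.60 and 5.64, and Aif1, a macrophage protein, fell by 5.55. Hebp1 (-6.80), Pdlim4 (-6.11), Rassf2 (-5.62) and Adamdec1 (-5.54) were also among them. Cpb1, a pancreatic carboxypeptidase, was at 4.40, 4.28 and 4.69 on stimulated and 12.03, 5.78 and 12.89 on resting arrays. Its difference of -5.77 became -1.32 and lost its call (adjusted p = 0.41) without resting replicates 1 and 3.

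**Figure D2:**
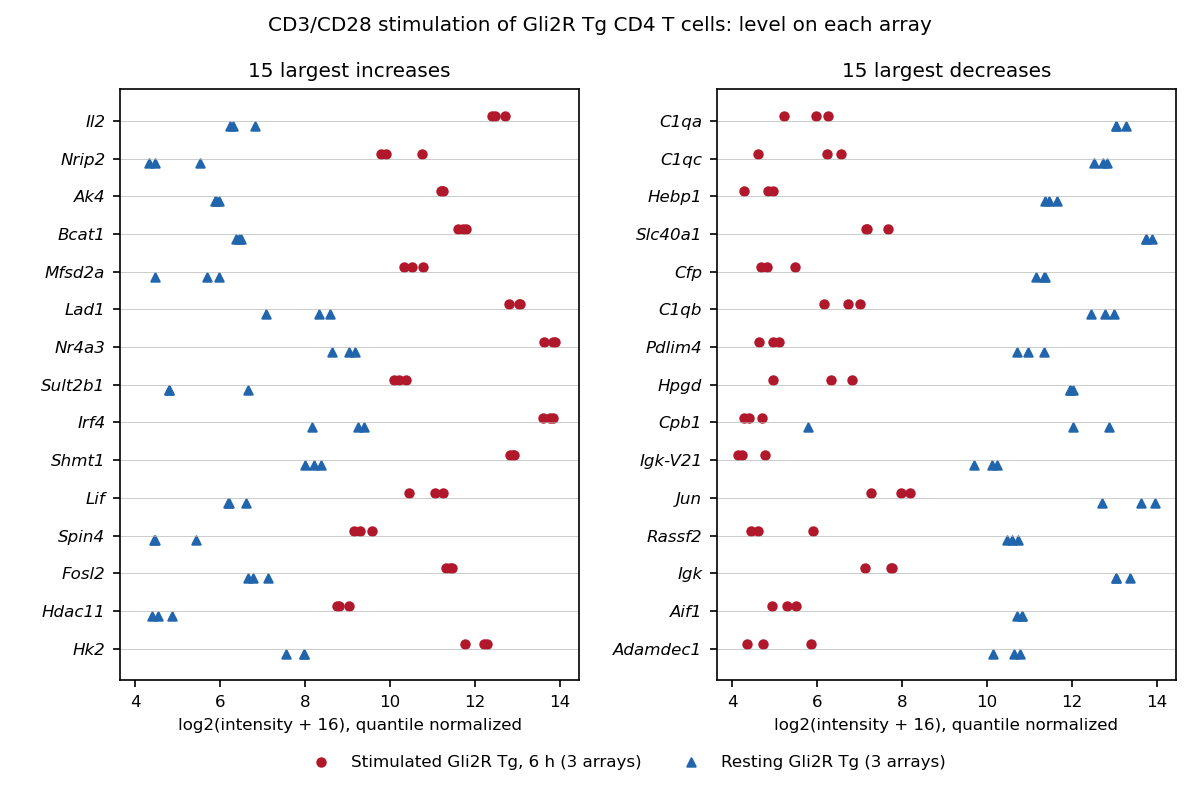
Level, as log2(intensity + 16), of the 15 genes with the largest increases and the 15 with the largest decreases, on the 3 stimulated (red circles) and 3 resting (blue triangles) Gli2R Tg arrays. These genes were chosen among those without overlap. Resting Cpb1 is split between 1 array near 5.80 and a pair above 12.

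Immediate early transcription factors moved in both directions, also within AP-1, where Fosl2 rose and Fos and Jun fell. Of 18 measured Egr, NR4A and AP-1 genes, 10 rose and 7 fell (median 1.24), against 19.8% and 22.5% of all genes. Nr4a1, a sister of Nr4a3 that marks antigen receptor signalling, was at 14.08, 14.02 and 14.06 on stimulated arrays and 11.16, 10.85 and 9.54 on resting ones, a difference of 3.54 (adjusted p = 2.64e-07). Egr2, a zinc finger factor induced through NFAT, rose by 2.18. Fos, the partner of Jun in AP-1, went the other way, with levels between 10.85 and 11.29 on the stimulated arrays and 14.64, 14.71 and 14.61 on resting arrays (difference -3.61, adjusted p = 1.25e-05). So at 6 h the freshly taken cells, not the stimulated ones, held the higher Fos and Jun levels. Without stimulated replicates 1 and 3, which leaves 1 stimulated array, 9 of the list were called higher and 2 lower.

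NF-kB genes mostly rose. Among 17 measured subunits and inhibitors, 10 rose and 4 fell. Nfkbid, a nuclear inhibitor-like protein that also promotes Il2 transcription, rose by 3.57, Bcl3 by 2.21, the p100 subunit gene Nfkb2 by 2.18 and the subunit gene Rel by 1.77. Nfkbiz, a related nuclear regulator, fell by 2.86.

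Factors of helper lineages moved in both directions. Of 23 measured, 10 rose (43.5%) and 7 fell (30.4%), against 19.8% and 22.5% of all genes. Beside Irf4, its relative Irf8 rose by 3.96, and Crem, a cAMP-responsive factor, rose by 3.05. Tbx21, the Th1 factor T-bet, was at 11.02, 11.07 and 10.43 on stimulated arrays and 9.41, 9.48 and 9.86 on resting ones, and Eomes, its relative, rose by 2.28. Gata3, the Th2 factor, was lower by 0.73 (adjusted p = 0.0123), and Foxp3, the regulatory T cell factor, by 0.94 (adjusted p = 0.0138). Both calls were lost without resting replicate 1 (adjusted p = 0.0514 for Gata3 and 0.0608 for Foxp3) and without stimulated replicate 3 (0.0722 and 0.0621), and that of Foxp3 also without resting replicate 2 (0.0585).

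Cytokine genes responded in part. Of 22 measured, 8 rose (36.4%) and 4 fell (18.2%), against 19.8% and 22.5% of all genes. Their median difference was 0.94, against 0.01 over all genes. Ifng, the Th1 cytokine interferon gamma, was at 12.38, 12.49 and 11.36 on stimulated and 9.72, 9.77 and 8.55 on resting arrays (difference 2.73, adjusted p = 2.22e-04). Il17a, the Th17 cytokine, was at 8.92, 10.10 and 9.35 on stimulated and 6.42, 6.47 and 6.27 on resting arrays (difference 3.07). Csf2, the granulocyte-macrophage growth factor, rose by 2.60. Il4, the Th2 cytokine, did not pass the test: its levels of 7.91, 8.81 and 7.33 on stimulated arrays and 7.26, 8.04 and 7.56 on resting arrays overlapped (difference 0.40, 95% interval -0.40 to 1.19, adjusted p = 0.434). Among 17 chemokine ligands, Cxcl10, an attractant of Cxcr3-bearing cells, rose by 3.83, whereas Ccl6, a myeloid chemokine, fell by 4.26 and Ccl5 by 2.63. The list's 7 increases became 3, 4 and 3 without stimulated replicates 1, 2 and 3 in turn and 4 without resting replicate 2.

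Among cytokine receptor chains, one for interleukin 2 rose and that for interleukin 7 fell. Il2ra, the high-affinity chain CD25, was at 11.95, 12.14 and 11.60 on stimulated arrays, against 8.99, 9.23 and 8.60 on resting ones, a difference of 2.96 without overlap (adjusted p = 6.33e-08). Il7r, the receptor of the survival cytokine interleukin 7, was at 10.09, 10.17 and 10.24 on stimulated and 13.86, 13.69 and 13.51 on resting arrays (difference -3.52), again without overlap. Il6ra fell by 2.59, Il18r1 by 2.68 and Il2rb by 1.38. Over the whole list of 25, 6 rose and 10 fell, and without stimulated replicate 2 these counts were 3 and 10. Downstream of the receptors, Cish, a STAT5-induced inhibitor of cytokine signalling, rose by 2.53, the kinase genes Pim3 and Jak2 by 2.83 and 1.88, and Jak1 fell by 2.05. Of 21 STAT, JAK, SOCS and PIM genes, 11 rose and 3 fell.

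Costimulatory and inhibitory genes moved in both directions, and most genes of the receptor machinery fell. Of 27 costimulatory and inhibitory genes measured, 12 rose, 6 fell and 9 were not called. Tnfrsf9, the costimulatory receptor 4-1BB, was at 14.22, 14.09 and 14.12 on stimulated and 11.03, 10.89 and 10.25 on resting arrays, a difference of 3.42. Fasl, the death ligand, rose by 2.99 and Tnfsf11, which encodes RANKL, by 2.66, while Slamf6, a SLAM family receptor, fell by 2.99. Among 24 genes of the receptor complex and its proximal signals, 3 rose and 15 fell (median -0.85). Cd3e, an invariant chain of the complex, was at 10.90, 10.21 and 10.70 on stimulated and 13.46, 13.41 and 13.01 on resting arrays (difference -2.69), Cd3g fell by 1.99 and Cd4 by 1.32. The kinase gene Txk fell by 2.53 and the phospholipase gene Plcg1 by 1.90, and Zap70 was not called (0.50, adjusted p = 0.0625).

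Genes that hold a T cell at rest fell together. Of 23 measured naive and quiescence regulators, 16 fell and 2 rose, with a median of -1.54. The 2 increases were 1 without resting replicate 1, resting replicate 2 or stimulated replicate 3 and 3 without resting replicate 3. Txnip, which limits glucose uptake, was at 9.41, 9.34 and 9.17 on stimulated and 13.46, 13.19 and 13.03 on resting arrays, a difference of -3.92 (adjusted p = 3.68e-09). Pik3ip1, an inhibitor of PI3 kinase, fell by 3.63, Lef1, a Wnt pathway factor of naive cells, by 3.18, and Klf2, which keeps homing receptors on, by 3.18. Foxo1, which keeps Il7r and Klf2 expressed, fell by 1.72. S1pr1, the exit receptor from lymphoid organs, fell by 2.61 and Cxcr4 by 3.40, while Ccr8 rose by 4.19 and Ccr7 by 1.05, in a list of 17 homing receptors with 4 higher and 8 lower. Negative regulators of signalling fell more often than they rose (8 and 3 of 18): Dtx1, a ubiquitin ligase linked to anergy, fell by 4.39 and Dgka, a diacylglycerol kinase, by 3.29. Of 14 feedback genes of MAP kinase signalling, 5 rose and 4 fell. Spry1 rose by 3.65 and Dusp5 by 3.19, whereas Dusp6 fell by 3.36 and Dusp1 by 2.85.

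Members of the regulators of RNA decay and of the MYC network moved in either direction. Of the RNA decay regulators 27.3% rose and 36.4% fell, and of the MYC network 33.3% and 25%, against 19.8% and 22.5% of all genes. Both lists are short, and neither was tested as a list. Zfp36l2 and Zfp36, which bind AU-rich messages and speed their decay, fell by 2.41 and 2.14, and Zc3h12d rose by 1.53 (of 11 measured, 3 rose and 4 fell). Myc, the growth regulator, was at 13.59, 13.38 and 13.37 on stimulated and 10.81, 10.82 and 10.37 on resting arrays (difference 2.78, adjusted p = 7.88e-08). Mxd4, a repressor that competes with MYC for MAX, was at 5.56, 5.73 and 5.44 on stimulated and 10.29, 10.45 and 9.68 on resting arrays (difference -4.56). Myc was thus higher and Mxd4 lower on all stimulated arrays, in a network of 12 genes with 4 called higher and 3 lower, or 2 and 3 without resting replicate 3.

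Every measured gene of ribosome biogenesis rose. All 35 measured genes were called higher, against 19.8% of all genes. All 35 also did not overlap between conditions, against 24.8% of all genes without overlap and with stimulated values above. Their differences ran from 0.42 to 3.06, with a median of 2.01. Rrp1b, a nucleolar processing factor, was at 12.82, 12.85 and 12.18 on stimulated and 9.73, 9.85 and 9.07 on resting arrays (difference 3.06). Nolc1 rose by 2.87, Rrp9 by 2.85, Utp20, a component of the small-subunit processome, by 2.73, Nop56 by 1.83 and nucleolin (Ncl) by 1.27. Translation factors and aminoacyl-tRNA synthetases followed, with 25 of 27 higher, 0 lower and a median of 1.53. Tars, Wars and Iars, which charge the tRNAs of threonine, tryptophan and isoleucine, rose by 2.44, 2.42 and 2.30, and Eif1a by 2.37. Eif4a1 was called higher by 0.57 on its brightest probe set, but the mean of its probe sets gave -1.03. The call was also lost without resting replicate 1 or 2 or any stimulated array (adjusted p from 0.0579 to 0.133).

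Promoter windows of Utp20 (chr10:88826765-88827064, minus strand) and Iars (chr13:49681880-49682179, plus strand), from RefSeq on GRCm38.p6, are shown as members of these lists that hold the E-box CACGTG, the textbook binding sequence of MYC with MAX. Capitals mark it. It stood in 29.4% of 34 ribosome biogenesis windows and 36.4% of 22 windows of the translation list, against 7.15% of all windows and 8.73% of the windows of measured genes. The share was also high, at 44.4% of 9 windows, for the dendritic cell markers, a list with 1 gene called higher and 4 lower.
Utp20: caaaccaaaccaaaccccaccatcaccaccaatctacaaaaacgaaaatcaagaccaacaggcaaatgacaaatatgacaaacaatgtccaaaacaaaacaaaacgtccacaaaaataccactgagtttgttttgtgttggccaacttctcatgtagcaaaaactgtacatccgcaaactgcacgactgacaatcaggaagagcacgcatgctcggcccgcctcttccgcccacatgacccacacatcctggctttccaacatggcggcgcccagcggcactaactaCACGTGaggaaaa
Iars: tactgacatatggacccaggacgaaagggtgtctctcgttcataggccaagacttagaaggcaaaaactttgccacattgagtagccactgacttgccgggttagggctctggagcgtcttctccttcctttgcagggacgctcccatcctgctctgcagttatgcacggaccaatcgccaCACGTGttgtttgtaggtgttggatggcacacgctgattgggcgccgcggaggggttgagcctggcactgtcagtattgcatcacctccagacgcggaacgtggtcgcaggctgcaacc

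The ribosomal proteins themselves did not follow. Of 16 measured cytosolic ribosomal protein genes 0 rose and 3 fell (median -0.04), and Rps27 had the largest difference (-2.87). Rps9, among those that fell, was instead higher by 0.60 when its probe sets were averaged (limma adjusted p = 0.00299). Mitochondrial ribosomal proteins rose in 10 of 21 and fell in 3, with Mrps18b at 2.20 and Mrpl3 at 2.13. Subunits of oxidative phosphorylation stayed near the background, with 5 of 27 higher, 5 lower and a median of -0.06, which changed sign with median centring, on the deposited scaling and without resting replicate 3. Without stimulated replicate 2, 3 were higher. Cycs, the somatic cytochrome c gene, rose by 1.61 and Cyc1 by 1.11, and Ndufa4 fell by 1.12.

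**Figure D3:**
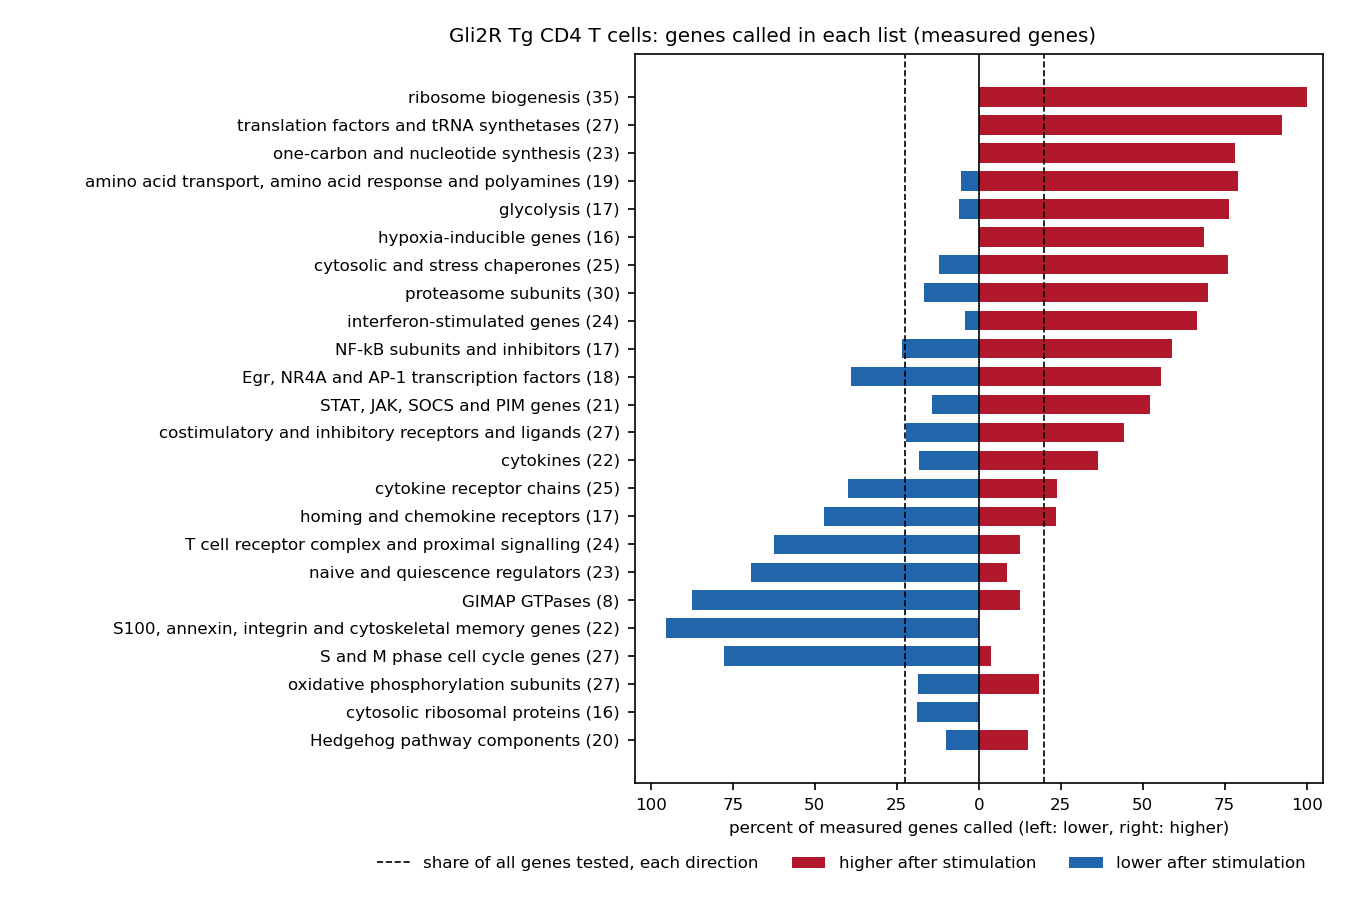
Percent of the measured genes of each list (number in brackets) called higher (red, right) and lower (blue, left) after stimulation of Gli2R Tg cells at an adjusted p under 0.05. Dashed lines mark the shares of all genes tested, 19.8% higher and 22.5% lower.

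Glycolysis and hypoxia-inducible genes rose together. Of 17 measured glycolysis genes, 13 rose and 1 fell (median 1.63), and of 16 hypoxia-inducible genes 11 rose and 0 fell (median 2.16). Hk2, which traps glucose in the cell, was at 12.30, 12.21 and 11.77 on stimulated and 7.97, 7.98 and 7.55 on resting arrays (19.2-fold, adjusted p = 3.17e-09). Its groups were far apart. Pfkl, a phosphofructokinase, rose by 2.76, Pgam1 by 2.74, Tpi1 by 2.57, the glucose transporter gene Slc2a1 by 2.26 and Ldha, the lactate dehydrogenase subunit, by 1.41. Egln3, an oxygen-sensing prolyl hydroxylase that HIF induces, was at 11.62, 11.50 and 11.24 on stimulated and 8.0, 7.67 and 6.88 on resting arrays, a difference of 3.94. Vegfa rose by 3.42 and Ankrd37 by 3.31. The windows of Hk2 (chr6:82774405-82774704, minus strand) and Egln3 (chr12:54203825-54204124, minus strand), from RefSeq on GRCm38.p6, are shown with the hypoxia response core ACGTG in capitals on either strand. This core lies within every CACGTG. It stood in 65.0% of 20 windows of the hypoxia list and 61.5% of 26 glycolysis windows, against 19.6% of all windows and 22.9% of those of measured genes. Other lists also had high shares, with 50% of 22 windows of the translation list. The share was 50% of 6 windows for the T cell identity markers, of which 8 of 10 genes were called lower.
Hk2: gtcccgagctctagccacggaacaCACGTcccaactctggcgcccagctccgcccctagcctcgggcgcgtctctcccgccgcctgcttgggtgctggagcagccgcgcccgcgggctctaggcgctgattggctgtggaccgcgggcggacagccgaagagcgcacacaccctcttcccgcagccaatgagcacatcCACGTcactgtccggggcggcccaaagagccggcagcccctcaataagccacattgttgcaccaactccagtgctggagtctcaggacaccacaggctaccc
Egln3: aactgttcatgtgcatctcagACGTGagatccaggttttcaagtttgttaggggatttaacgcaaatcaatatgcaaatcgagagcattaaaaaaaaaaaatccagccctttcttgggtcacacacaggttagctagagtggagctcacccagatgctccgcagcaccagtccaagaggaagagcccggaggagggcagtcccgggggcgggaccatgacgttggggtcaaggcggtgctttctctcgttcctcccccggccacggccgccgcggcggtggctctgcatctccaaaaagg

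Supply of building blocks rose as well. Of 23 measured one-carbon and nucleotide synthesis genes, 18 rose and 0 fell (median 1.31). Shmt1 and Shmt2, the cytosolic and mitochondrial serine hydroxymethyltransferases, rose by 4.69 and 2.86, Ctps, the CTP synthase, by 3.19, Psat1 by 2.37 and Mthfd2 by 2.13. Among 19 amino acid and polyamine genes, 15 rose and 1 fell, with 15 and 3 without stimulated replicate 1. Slc7a5, the large neutral amino acid transporter, was at 12.41, 12.46 and 12.14 on stimulated and 9.29, 9.34 and 9.90 on resting arrays (difference 2.83). Its partner chain Slc3a2 rose by 1.14, Srm, the spermidine synthase, by 2.91, Odc1, the first enzyme of polyamine synthesis, by 2.44, and Sesn2, a stress sensor of amino acid supply, by 3.61. Sterol and fatty acid genes divided, with 9 of 28 higher and 13 lower. Acaca, the first enzyme of fatty acid synthesis, rose by 1.86, and the cholesterol exporters Abcg1 and Abca1 fell by 2.99 and 2.32. Macrophages express these exporters too, and the part of the lower macrophage markers in their decrease was not tested.

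Protein folding and proteasome genes rose, with exceptions that moved strongly the other way. Of 25 chaperones, 19 rose and 3 fell. Hsph1 rose by 2.36 and the mitochondrial chaperonin gene Hspd1 by 1.17. Hspa1a and Hspa1b, the stress-inducible HSP70 genes, which are near-identical copies, fell. Hspa1b was at 10.23, 9.85 and 9.57 on stimulated and 13.84, 14.23 and 13.77 on resting arrays (difference -4.06), and Hspa1a at 8.36, 8.02 and 7.15 on stimulated and 11.49, 12.41 and 11.47 on resting arrays. Hmox1, the heme oxygenase counted here among the macrophage markers too, fell by 5.36. Of 30 proteasome subunits, 21 rose and 5 fell. The activator gene Psme3 rose by 2.65 and the ATPase subunit gene Psmc4 by 2.14. Psmb8 and Psmb10, catalytic subunits of the immunoproteasome, fell by 1.61 and 1.62.

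Genes of DNA replication and mitosis were mostly lower at 6 h. Of 27 measured S and M phase genes, 21 fell and 1 rose (median -1.15). Rrm2, a ribonucleotide reductase subunit, was at 7.91, 8.23 and 8.26 on stimulated and 11.26, 10.70 and 11.49 on resting arrays (difference -3.02), Birc5 fell by 2.83, Tk1 by 2.55 and Ccna2, which encodes cyclin A2, by 2.48. Mki67, the proliferation antigen, was at 6.31, 6.64 and 7.71 on stimulated and 9.52, 9.05 and 8.78 on resting arrays (difference -2.23). Without resting replicates 1 and 3 the list had 9 lower and 0 higher genes, and without stimulated replicates 1 and 3 it had 13 and 0. Of 19 G1 genes, 5 rose and 8 fell. Ccnd2, an early cyclin D, rose by 1.36, and the cyclin-dependent kinase inhibitors Cdkn1b (p27) at -3.02 and Cdkn2d (p19) at -3.81 were lower, as were the retinoblastoma relative Rbl2 (-3.62) and the D cyclin Ccnd3 (-1.93). Among 18 apoptosis regulators, 4 were higher (22.2%) and 6 lower (33.3%), against 19.8% and 22.5% of all genes. The survival gene Bcl2l1 rose by 2.77 and the death-promoting Bcl2l11 by 2.80, while Bcl2 fell by 1.81 and Casp8 by 1.75.

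Interferon-stimulated genes rose in 16 of 24 and fell in 1 (median 0.96). Gbp2, a guanylate-binding GTPase, was at 13.78, 13.89 and 13.69 on stimulated and 11.91, 12.03 and 10.68 on resting arrays (difference 2.24), and Oasl2, Ifit3 and Ifit1, antiviral effectors, rose by 1.65, 1.54 and 1.52. Without stimulated replicates 1 and 3, which leaves 1 stimulated array, 9 of these genes were called higher. GIMAP GTPases, survival factors of resting lymphocytes encoded in a single cluster, fell in 7 of 8, led by Gimap6 (-2.56), Gimap3 (-2.36) and Gimap1 (-2.18), and Gimap5 rose by 0.83.

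A set linked to memory and migration fell almost whole. Of 22 S100, annexin, integrin and cytoskeletal genes, 21 fell, 0 rose and the median was -2.23. Emp3, a membrane protein, was at 9.31, 9.49 and 10.34 on stimulated and 13.39, 13.44 and 13.69 on resting arrays (difference -3.79), Lgals3 fell by 3.61, S100a13 by 3.57 and Crip1 by 3.55. Macrophages also express Lgals3, and their part in these decreases was not tested. Of 10 cytotoxic granule genes 2 rose and 6 fell: granzyme B (Gzmb) rose by 2.44, while Ctsw fell by 2.31, Nkg7 by 2.28 and granzyme K (Gzmk) by 1.91.

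Few components of the Hedgehog pathway, to which Gli2 belongs, were called. Of 20 components, 3 rose and 2 fell, a share close to or below that of all genes. Ptch1, the receptor and a textbook Gli target, was at 10.08, 10.23 and 9.96 on stimulated and 10.60, 10.26 and 10.34 on resting arrays, and its difference of -0.31 (95% interval -0.65 to 0.02) was not called (adjusted p = 0.126). The signal transducer Smo (0.37), Gli1 (-0.44) and Gli3 (0.03) were not called either. Dhh, the desert hedgehog ligand, was at 6.84, 5.45 and 6.84 on stimulated and 4.21, 4.35 and 4.30 on resting arrays (difference 2.09, adjusted p = 2.79e-04). Shh, the sonic hedgehog ligand, was called higher by 1.59, a call lost without resting replicate 1 (adjusted p = 0.0765), stimulated replicate 1 (0.069) or stimulated replicate 2 (0.0689). In each of these 3 cases 1 component was called higher and 2 lower. Spop and Kif7, regulators of Gli proteins, fell by 1.18 and 1.73. Among the 16 textbook Gli targets measured, 1 rose (Ccnd2) and 3 fell, and these counts were 1 and 1 without resting replicate 1 and 2 and 1 without resting replicate 2. In the Notch pathway 2 of 17 rose (11.8%), with the ligand gene Dll4 at 1.35, and 4 fell (23.5%), with Dtx1, Hes1 (-1.44) and Nrarp (-1.30). Over all genes these shares were 19.8% and 22.5%. In the TGF-beta pathway 4 of 17 rose (23.5%) and 7 fell (41.2%), among them the receptors Tgfbr3 (-2.54) and Tgfbr2 (-1.88).

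Macrophage markers were lower after stimulation, and each other list of cell markers held called and uncalled genes. Over all genes 19.8% were called higher and 22.5% lower. Of 19 macrophage and monocyte markers, 18 fell (median -4.90). C1qa was at 6.25, 5.21 and 5.98 on stimulated and 13.04, 13.03 and 13.27 on resting arrays, and Csf1r, the receptor of the macrophage growth factor, fell by 5.48. B cell markers fell in 6 of 13 (Ly86 -4.38, Cd79b -2.53), and erythroid and platelet markers in 6 of 12. In each of these 2 lists 1 gene was called higher, or 2 erythroid and platelet genes without stimulated replicate 2. Neutrophil markers fell in 4 of 8, among them S100a8 by 3.24, with 0 higher. Dendritic cell markers had 1 higher and 4 lower of 9, or 2 lower without resting replicate 1 or stimulated replicate 1. Stromal and endothelial markers had 2 higher (16.7%) and 3 lower (25%) of 12, near the shares of all genes, with Pecam1 at -3.50 and Stab2 at -2.37. Those higher were 1 without resting replicate 1 or stimulated replicate 3 and those lower 2 without stimulated replicate 1. Basophil, mast cell and eosinophil markers had 0 higher and 1 lower of 12, or 1 and 2 without stimulated replicate 3. Pancreatic acinar markers were called lower in 12 of 14 (median -3.84), but without resting replicates 1 and 3 in 1 (median 0.06). Leaving out resting replicate 1, resting replicate 3 or stimulated replicate 1 left 3, 2 and 3 called. Of 11 CD8 T and NK cell markers, 2 rose (Cd8a and Eomes) and 6 fell (median -0.81). Cd8a, a CD8 coreceptor chain, was at 9.19, 9.35 and 9.41 on stimulated and 6.45, 7.07 and 6.81 on resting arrays (difference 2.54, adjusted p = 8.44e-07).

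Resting Gli2R Tg cells were not alike. Some genes of follicular helper and recently activated T cells were higher on resting replicates 1 and 2 than on resting replicate 3. These genes were picked after their values were seen and get no test of that split. Not all genes that rose with stimulation shared this order: Tbx21 and Slc7a5, given above, were highest on resting replicate 3. Il21, a cytokine of follicular helper cells, was at 9.90, 10.27 and 9.65 on stimulated arrays and at 9.49, 9.71 and 6.41 on resting replicates 1, 2 and 3, with 6.09, 6.70 and 6.16 on resting WT arrays. Tox2, a factor of the same cells, was at 9.77, 9.53 and 9.50 on stimulated arrays, 11.51, 11.66 and 8.46 on resting Gli2R Tg arrays and 8.80, 9.10 and 8.67 on resting WT arrays. In both genes resting replicate 3 lay near the WT arrays and the other two lay above them. Ascl2 was at 4.41, 4.43 and 5.20 on stimulated and 8.26, 8.54 and 5.83 on resting arrays. Il10, an inhibitory cytokine, was at 6.31, 6.53 and 6.59 on stimulated and 8.64, 8.63 and 6.71 on resting arrays. The inhibitory receptor genes showed the same order of resting arrays: Pdcd1, which encodes PD-1, was at 10.10, 10.53 and 8.85, Ctla4 at 10.80, 10.81 and 9.14 and Lag3 at 9.07, 9.48 and 6.14 on resting replicates 1, 2 and 3. Icos, a costimulatory receptor of follicular helper cells, was at 12.10, 12.06 and 10.52 and Bhlhe40 at 10.17, 10.13 and 8.53 on the resting arrays. Over all arrays the stimulation effects of Tox2 (-0.94, adjusted p = 0.204), Il21 (1.40, 0.106), Pdcd1 (0.70, 0.0821) and Lag3 (0.01, 0.99) were not called. Ascl2 (-2.86, adjusted p = 5.17e-04) and Il10 (-1.52, 0.0102) were called lower by limma, without overlap. All Il21 values here come from the brighter of its 2 probe sets. The other Il21 probe set had an effect of 4.41, and 1 of the 2 was called higher when probe sets were tested one by one. Ctla4 was called higher by 1.00, but not without resting replicate 3 (0.44, adjusted p = 0.174) or without stimulated replicate 1 (0.0668) or 2 (0.116).

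**Figure D4:**
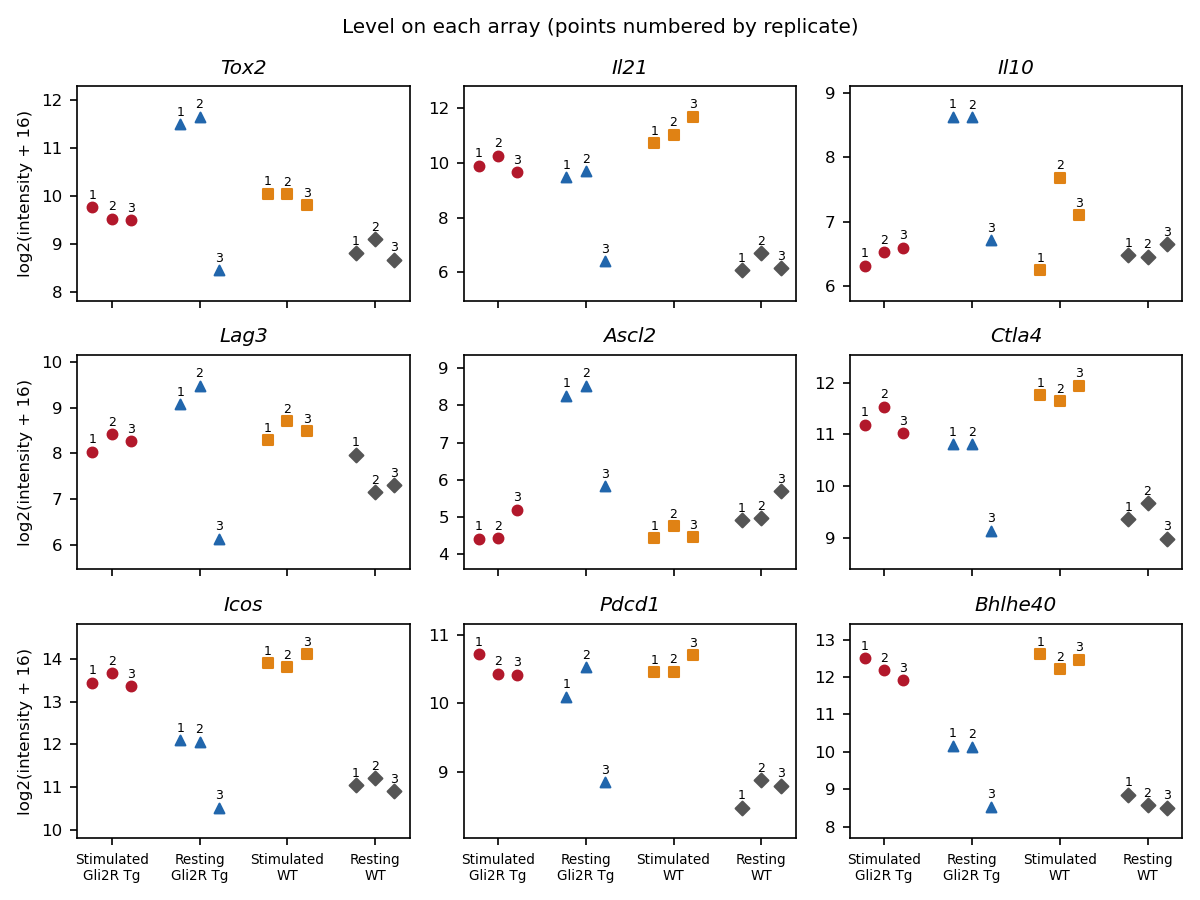
Level, as log2(intensity + 16), of 9 genes on each stimulated and resting Gli2R Tg array and each stimulated and resting WT array, numbered by replicate. Resting Gli2R Tg replicates 1 and 2 lie above replicate 3 in every panel, by over 3 units for Tox2 and Il21, and replicate 3 lies near or below the resting WT arrays.

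The response was then set against that of WT cells, by the difference between the 2 stimulation effects. No gene of 18193 passed the test (0%, lowest adjusted p = 0.133), and 1574 had an unadjusted p under 0.05. The lowest p-values in the upward direction belonged to Abca9, an ABC transporter gene, with an effect of -1.67 in Gli2R Tg and -3.27 in WT cells (difference 1.61, SE 0.26, adjusted p = 0.133), and to Cavin4 (1.29 in Gli2R Tg, -0.42 in WT). In the downward direction they belonged to Haghl (-1.66 in Gli2R Tg, 0.40 in WT) and Ctsw, a cathepsin gene of cytotoxic cells (-2.31 in Gli2R Tg, -0.49 in WT). Of 22 cytokines, 8 rose in Gli2R Tg cells (median 0.94) and 15 in WT cells (median 2.11), the difference passed the test for 0 of them, and the lists were not tested against each other. Il4 had an effect of 0.40 in Gli2R Tg and 2.52 in WT cells (adjusted p of the difference = 0.284), and Il2 one of 6.08 and 6.87 (0.481). Without resting Gli2R Tg replicate 3, 12 genes had a lower effect than in WT. Among them were Il21 (-4.49, brighter probe set), Tox2 (-3.11), Ascl2 (-3.06), Il10 (-2.63), Lag3 (-2.05), Ctla4 (-2.02), Bhlhe40 (-1.73), Pdcd1 (-1.62) and Icos (-1.48). These genes were shown above as lower on that resting array, so leaving it out lowers their effect by construction and adds no separate evidence. The others were Ncmap (-2.33), Fam20a (-2.30) and Haghl (-2.16). On resting replicates 1, 2 and 3, Ncmap was at 8.17, 8.52 and 6.93 and Fam20a at 6.77, 7.13 and 5.57. Both were thus also lowest on resting replicate 3, and the same limit holds for them. Leaving out any other array of these groups gave 0 to 2 genes.

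The last comparison was with Gli2A Tg cells, which carry the activator form, and shares the Gli2R Tg arrays with that against WT. In it 20 genes differed in their stimulation effect (0.11%), 14 with a higher effect in Gli2R Tg cells (0.077%) and 6 with a lower one (0.033%). An unadjusted p under 0.05 was found for 1935 genes. Rsad2, an interferon-induced antiviral enzyme, rose by 1.35 in Gli2R Tg cells and had an effect of -2.48 in Gli2A Tg cells (difference 3.83, SE 0.43, adjusted p = 0.00438). With the mean of its probe sets, the rise of Rsad2 in Gli2R Tg cells was 0.65 and not called by limma (adjusted p = 0.0944). Its stimulated means were 11.33 in Gli2R Tg and 11.14 in Gli2A Tg cells, and its resting means 9.98 and 13.62, so the gap lay in the resting cells. The same held for Slc25a37, the mitochondrial iron importer, with stimulated means of 9.18 in Gli2R Tg and 9.25 in Gli2A Tg cells and resting means of 8.95 and 12.23. Ifit1 had an effect of 1.52 in Gli2R Tg and -0.81 in Gli2A Tg cells, and over the interferon list 16 genes rose and 1 fell in Gli2R Tg cells, against 5 and 5 in Gli2A Tg cells and 16 and 2 in WT cells. The difference from Gli2A Tg was called for 2 of these 24 genes, and the list counts were not tested against each other. Pmepa1, a TGF-beta target, had an effect of 0.48 in Gli2R Tg and -1.47 in Gli2A Tg cells.

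In the lower direction, Il4 separated the stimulated cells. Its stimulated means were 8.02 in Gli2R Tg and 11.72 in Gli2A Tg cells, and its resting means 7.62 and 7.92. The effect was 0.40 in Gli2R Tg and 3.80 in Gli2A Tg cells, a difference of -3.40 (SE 0.52, adjusted p = 0.019). Csf2 had an effect of 2.60 in Gli2R Tg and 5.67 in Gli2A Tg cells (difference -3.07, adjusted p = 0.0397), with stimulated means of 9.17 and 10.89 and resting means of 6.56 and 5.22. Hspa1b fell by 4.06 in Gli2R Tg cells and had an effect of 1.23 in Gli2A Tg cells (difference -5.29, adjusted p = 0.00438). Its resting means were 13.95 in Gli2R Tg and 9.36 in Gli2A Tg cells, with 13.41 in WT. Kis2 had an effect of -1.0 in Gli2R Tg and 1.87 in Gli2A Tg cells. Macrophage markers averaged 10.69 to 11.05 on resting Gli2R Tg arrays and 11.95 to 11.99 on resting Gli2A Tg arrays, and 13 genes were called with their mean as a covariate. Of the 16 named genes among the 20, Hspa1b, Kis2 and Rsad2 kept their call under every alternative run and the other 13 did not, and 1 array left out in turn gave between 6 and 34 genes. The count was 34 without resting Gli2A Tg replicate 1, 6 without stimulated Gli2R Tg replicate 1 or stimulated Gli2A Tg replicate 2, 9 without stimulated Gli2A Tg replicate 1 and 10 without resting Gli2R Tg replicate 2.

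**Figure D5:**
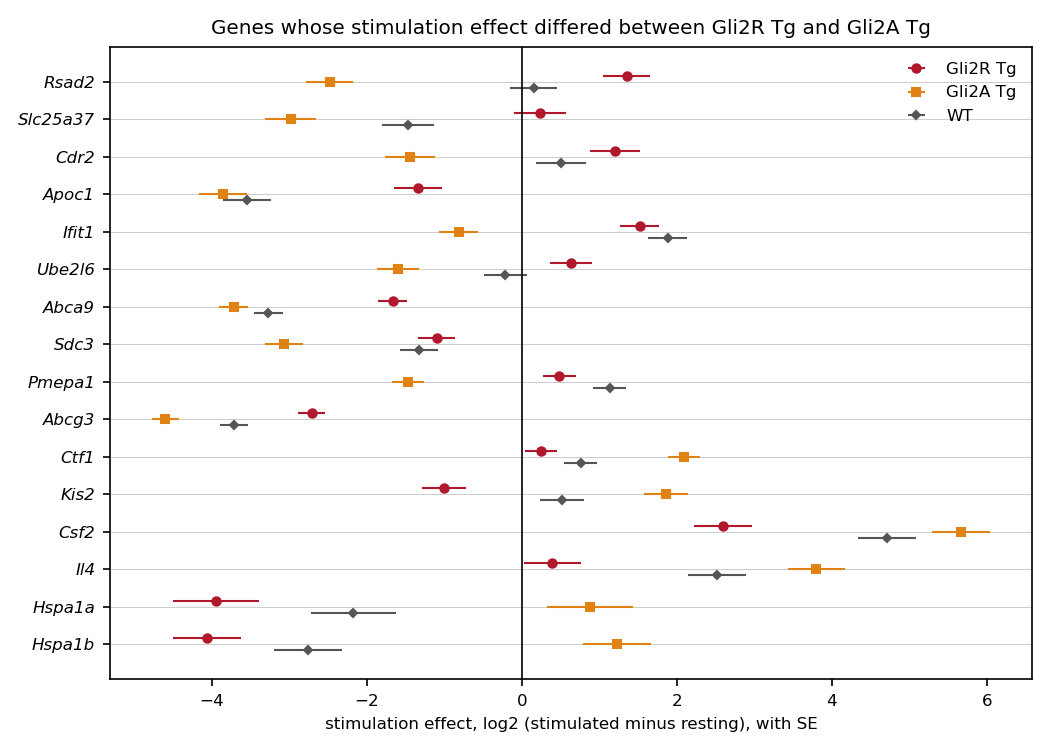
Stimulation effect (log2, stimulated minus resting, with SE from limma) in Gli2R Tg, Gli2A Tg and WT cells for the 16 named genes whose effect differed between Gli2R Tg and Gli2A Tg. Hspa1b is near -4 in Gli2R Tg cells and above 1 in Gli2A Tg cells, and Il4 is 0.40 in Gli2R Tg and 3.80 in Gli2A Tg cells.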

How the data were processed

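The authors deposited a linear intensity for each of 45101 probe sets on 18 arrays. The submitters' processing notes name the affy package with no version, and the deposited values have a 2% trimmed mean of 500 on every array. Per the labels' protocols, each array used 1 ug of RNA. Precision is limited by the 3 arrays in a group.

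Intensities were turned into log2(value + 16) and quantile normalized over all arrays. Each of 18193 genes was read from its brightest probe set with 1 symbol in GEO's platform annotation. Means of the 6 groups were fitted with limma 3.58.1 in R 4.3.3 (lmFit, eBayes), and the stimulation effect in Gli2R Tg and its differences from WT and Gli2A Tg were tested with Benjamini-Hochberg adjustment within each. The Gli2R Tg comparison was tested on simulated data of 18193 genes, of which 200 were changed: of 1 log2 unit, 44% of changes were found, of 2 units 77%, and 4.72% of calls were false. Far more genes, 7703, were called in the data. The Benjamini-Hochberg cut-off was thus stricter in the simulation, and these rates do not give the power of the comparison.

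Named are the 15 largest and 15 smallest effects called without overlap, the 4 largest of each list (all members of lists up to 10), a few fixed members, Gli2, and up to 10 genes in each direction of a difference. Clone and predicted-gene names were left out. The members and lists were chosen with earlier results of these data known. Il21, Tox2, Ascl2, Il10, Lag3, Fam20a and Ncmap were named after their values were seen. Promoter windows were RefSeq's, matched by symbol. Alternatives were other scalings, pseudocounts, probe set rules, fit options, marker and Y-linked means as covariates, a replicate block and leaving out arrays. Leaving out resting replicates 1 and 3 or stimulated replicates 1 and 3 together was chosen after the data were seen. Figures were drawn with matplotlib.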

Additional observations from a re-analysis of the deposited data

Results flagged for a closer look

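The stimulation effect of 16 named genes differed between Gli2R Tg and Gli2A Tg cells by limma's test of the difference itself, the rule by which they are listed here. Positive values mean a higher effect in Gli2R Tg cells. The differences were 3.83 for Rsad2, 3.22 for Slc25a37, 2.64 for Cdr2, 2.51 for Apoc1, 2.34 for Ifit1 and 2.23 for Ube2l6, which takes part in ISG15 conjugation. They were 2.05 for Abca9, 1.97 for Sdc3, 1.95 for Pmepa1 and 1.89 for Abcg3. On the lower side they were -5.29 for Hspa1b, -4.83 for Hspa1a, -3.40 for Il4, -3.07 for Csf2, -2.87 for Kis2 and -1.84 for Ctf1. For Apoc1 the effect was -1.34 in Gli2R Tg, -3.85 in Gli2A Tg and -3.55 in WT cells. For Ctf1 it was 0.25 in Gli2R Tg, 2.09 in Gli2A Tg and 0.76 in WT cells. Groups of 3 arrays were not tested for single outlying arrays.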

How the results depend on the processing

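The count of genes called in the Gli2R Tg response (7703, with 3604 higher and 4099 lower) stayed within 1.5 times under other scalings, pseudocounts and fit options. Exceptions were the macrophage marker mean as a covariate, with 15 genes (10 higher, 5 lower), and probe sets taken one by one, of which 13877 were called (6960 higher, 6917 lower) because more features were tested. Leaving out 1 Gli2R Tg array gave 7020 to 7222 genes, 3250 to 3385 higher and 3727 to 3837 lower. Without resting replicates 1 and 3 there were 5728 (2633 higher, 3095 lower), and without stimulated replicates 1 and 3 there were 5397 (2508 higher, 2889 lower). With 1 array left in a group, its spread was taken from the other groups.

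Replicate numbers 1 to 3 recur in every group. The deviations of stimulated and resting Gli2R Tg arrays of the same number correlated at 0.032, 0.0033 and 0.073. Of 3 arrays, 2 correlated best with their own number, which by itself does not settle whether the numbers mark pairs. Y-linked genes averaged 9.09 and 8.91 on stimulated replicates 1 and 3, against 4.80 and 4.86 on resting replicates 1 and 3. The numbers were therefore not read as pairs. With a replicate block, 7794 genes were called (3638 higher, 4156 lower), and the differences gave 0 genes against WT and 17 against Gli2A Tg. All 246 named genes called kept their call under the block.

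The 2 differences were small counts and moved more. Against WT, where 0 genes passed, log2(value + 64) gave 2 (1 higher, 1 lower), genes above the median level 1 (lower), probe sets one by one 6 (3 higher, 3 lower), trend and robust options 7 (5 higher, 2 lower), and leaving out 1 array 0 to 12 (0 to 1 higher, 0 to 12 lower). Against Gli2A Tg, with 20 genes, 14 higher and 6 lower, the count was 79 (52 higher, 27 lower) with log2(value + 64), 128 (74 and 54) among genes above the median level, 101 (66 and 35) with trend and robust options, 35 (16 lower) for probe sets one by one, 34 (13 lower) with array weights, 12 (8 higher) on the arrays of the groups compared, 10 (7 higher, 3 lower) with the Y-linked mean as a covariate and 13 (8 higher) with the macrophage marker mean. Those with a higher effect numbered 9 with median centring, 7 with log2(value + 1) and 8 with the pancreatic marker mean. Leaving out 1 array gave 6 to 34 genes, 4 to 20 higher and 2 to 14 lower.

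Of the 246 named genes called in the Gli2R Tg response, between 5 and 13 lost their call when 1 array was left out, and none of them turned. With the macrophage covariate 6 kept their call, 224 lost it and 16 changed sign. These were C1qb (2.44), Csf1r (0.010), Eif4a1 (-0.82), Eomes (-1.61), Hmox1 (0.74), Hpgd (0.56), Kif7 (0.70), Kis2 (1.07), Mpo (2.33), Pdgfra (-0.057), Ppbp (0.68), S100a8 (1.09), S100a9 (1.01), Sdc3 (0.67), Shh (-2.61) and Tbx21 (-0.38). With the pancreatic marker mean, 21 lost their call and Cpa1 (0.47) and Ctrb1 (0.27) turned, as Cpa1 did without resting replicates 1 and 3 (0.22). Averaging the probe sets of each gene turned Eif4a1 (-1.03) and Rps9 (0.60). The cause of these changes was not tested. Probe sets near the dimmest level limit what could be called, since the pseudocount shrinks their differences.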

Other observations

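Of the 7703 called genes, 4519 were read by several probe sets, and in 2701 of these all probe sets of the gene moved in 1 direction. Xist, which is transcribed from the inactive X chromosome, was at 8.05, 13.30 and 7.07 on stimulated and 14.37, 14.32 and 14.42 on resting arrays, low on the stimulated arrays with Y-linked signal. Its difference of -4.90 was not called (adjusted p = 0.0751).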
